A study of Macaca mulatta with 20 samples.

Results

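The genes of the TNF superfamily, its receptors, the caspases, the BCL2 family and the inhibitor of apoptosis family were followed through the life of the rhesus macaque corpus luteum. They were chosen by symbol alone: every gene whose symbol starts with TNFSF, TNFRSF, BCL2 or BIRC, every CASP gene with a number, and 13 singly named genes, of which 9 were measured here (TNF, FAS, FASLG, BAX, BAK1, BIK, MCL1, APAF1 and DIABLO). The rule gave 54 genes of the 14132 that had a probe set annotated with exactly 1 symbol. Where a gene had several such probe sets, the brightest on average stood for it. BID, TNFRSF1A, CASP1, CASP9, XIAP, BIRC5 and BCL2L2 were not analysed here.

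The 20 arrays each measured total RNA of a corpus luteum from a female rhesus macaque with normal menstrual cycles, collected on a known day after the midcycle surge of luteinizing hormone. There were 5 stages of 4 arrays, collected at days 3 to 5 for early, 7 to 8 for mid, 10 to 12 for mid-late, 14 to 16 for late and 18 to 19 for very-late tissue. No animal received a treatment that separates the groups, and age and strain were not given in the sources used here. The series design places the start of luteal tissue formation in the early stage, peak progesterone output in the mid stage, loss of progesterone output in the late stage and structural regression at menses in the very-late stage. The arrays are labelled biological replicates without naming the animals, so p-values measure the spread between these samples.

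Cells can be killed from outside, when a ligand of the TNF family binds a receptor with a death domain and initiator caspases are switched on, or from inside, when BAX and BAK1 open the outer mitochondrial membrane and APAF1 assembles the platform that activates caspases. Pro-survival BCL2 proteins hold BAX and BAK1 in check, BH3-only proteins relieve that hold, and inhibitors of apoptosis act on caspases and on receptor signalling. Many ligands of the family do not kill but act on immune cells, bone or blood vessels, and caspases of the inflammatory group serve the release of cytokines. In the corpus luteum these pathways are studied because the gland is dismantled at the end of each cycle that does not lead to pregnancy. The roles given here are known mostly from human and mouse.

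All values are log2 signals on the scale the authors deposited, and levels are never compared between probe sets. The 683 probe sets for viral genomes served as a gauge of background, with a median of 3.42 and a 95th percentile of 4.29. Stage means lay above that percentile in all 5 stages for 30 members, in some stages for 7 and in none for 17. Array medians ran between 3.88 and 3.98, and correlations between arrays of a stage between 0.964 and 0.995. The mean of 4 mitochondrial probe sets split the arrays: in 7 of them (very-late replicate 2, mid-late replicate 1, early replicate 4 and the whole mid stage) it was 6.06 to 8.5, against 12.6 to 13.6 in the other 13. Very-late replicate 1 had a GAPDH signal 2.70 higher at the 3′ than at the 5′ end, against 0.831 to 1.78 in the other 19 arrays. In bulk tissue, fewer cells of a type and less RNA per cell cannot be told apart.

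The tissue label was checked against luteal markers. The mean of 5 measured steroidogenic genes (STAR, HSD3B2, INHA, FDX1 and CYP19A1) was 7.30 to 9.02 in the very-late arrays, against 11.03 to 11.90 in the late arrays. It was 11.56 to 11.81 in the early arrays. Luteal transcripts were thus well above background in every array, and all 5 fell in very-late against late.

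Among neighbouring stages, most calls came at very-late against late, for the death-pathway genes as for all genes. Differences between any of the 5 stages passed limma's F test (Benjamini-Hochberg adjusted p under 0.05 over 52707 probe sets) for 16 of the 54 members, or 29.6%, against 33.6% of all genes. Of these 16, 10 had their highest mean at the very-late stage, 2 at late, 2 at mid-late, 2 at mid and 0 at early. Peak stages were not counted over all genes, so nothing particular to the set is read from these counts. The share of members that passed was near that of all genes, and nothing particular to the set is read from it.

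In very-late against late tissue, 8 members rose and 5 fell, or 24.1% of members, where 21.4% of all genes passed (10.2% higher and 11.2% lower). BCL2A1, TNFRSF14, BCL2L11, TNFRSF21, TNFSF15, CASP4, TNFSF14 and APAF1 rose, while TNFSF4, CASP6, TNFSF11, BIRC6 and BCL2L13 fell. Of these, TNFSF15, TNFSF14 and BCL2L13 did not pass the F test (adjusted p = 0.0746, 0.0584 and 0.0864). TNFSF8, BCL2, BCL2L1, CASP10, CASP8 and DIABLO, called only in other comparisons, did not pass the F test either (adjusted p between 0.0547 and 0.195). The median log2 change was 0.088 over the members and 0.008 over all genes. Against the early stage, 17 members were higher and 4 lower at very-late, where 28.9% of all genes passed (11.9% higher and 17% lower).

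Fewer members passed in the comparisons without the very-late stage. In late against early tissue 6 members rose and 0 fell, where 12.3% of all genes passed (4.22% higher and 8.07% lower). The 6 were TNFRSF19, TNFSF10, TNFSF4, TNFSF11, CASP8 and BIRC6. Mid against early gave 1 lower member, CASP4, with 0.594% of genes passing (0.248% higher and 0.347% lower), and mid-late against early gave TNFSF4 higher and CASP4 lower, with 6.31% passing (1.75% higher and 4.56% lower). By limma, the steps from mid to late gave 0 members. In mid-late against mid 0 passed (0.0142% of genes, with 2 members at an unadjusted p under 0.05). In late against mid-late 0 passed (0.00708% of genes, with 12 members unadjusted). Cyclic loess scaling gave 0 members in both, and array weights gave 0 in mid-late against mid and 1 in late against mid-late.

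**Figure D1:**
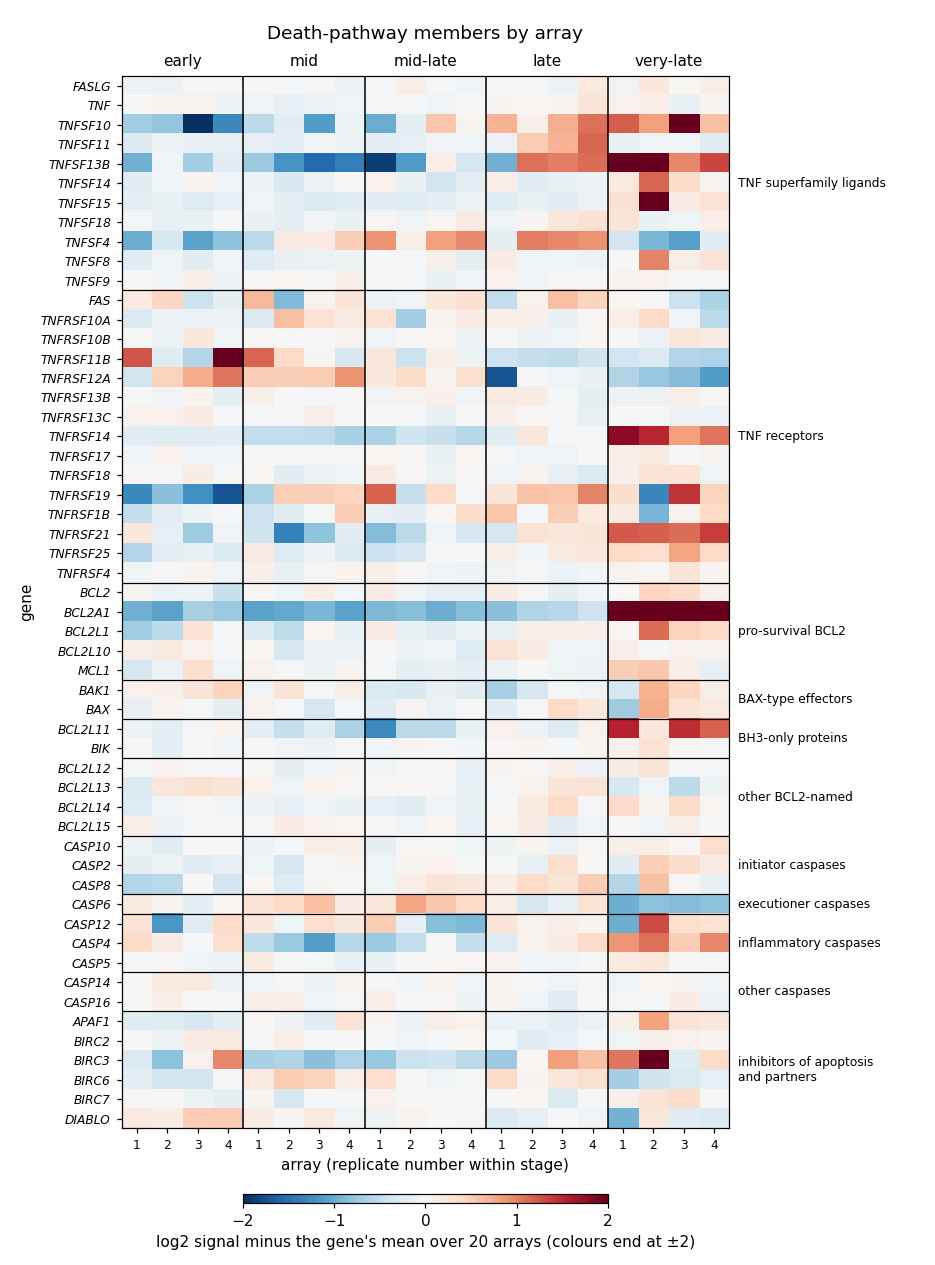
Log2 signal of the 54 members in each of the 20 arrays, as the difference from the gene's own mean over all arrays (red higher, blue lower, colours ending at 2 log2 units). Rows are grouped by role, columns run through the 5 stages with 4 replicates each. BCL2A1 is red in all 4 very-late arrays and blue in the other 16, CASP6 is blue in the very-late arrays, and single arrays such as late replicate 1 and very-late replicate 2 stand apart for several genes.

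Among the 11 ligands, 2 rose and 2 fell in very-late against late, and 3 rose in late against early. TNFSF10, the ligand known as TRAIL that can start killing through death receptors, had 8.28, 7.88, 9.14 and 7.66 in very-late arrays, against 6.37, 6.29, 5.04 and 5.77 in early arrays. Its stage means were 5.87, 6.57, 6.92, 7.72 and 8.24 from early to very-late, each above the one before. It was higher in very-late than in early tissue, at 8.24 ± 0.65 and 5.87 ± 0.61 (SD, n = 4 each), a change of 2.37 ± 0.37 (SE), adjusted p = 0.000122 by limma. All 4 very-late values lay above all 4 early ones. Late against early gave 1.85 ± 0.37, adjusted p = 0.0043 by limma, while the last step alone, 0.52 ± 0.37, did not pass. The change was not shared by every probe set of the gene: in late against early 2 of its 4 passed, the 3 not used here ranged between -0.05 and 1.81 (1 of these passed), and the mean of all 4 changed by 0.94 (adjusted p = 0.00176).

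TNFSF13B, the B cell survival factor BAFF, had 8.78, 8.84, 7.05 and 7.42 in very-late arrays, against 5.13, 7.19, 7.11 and 7.20 in late arrays and 5.13, 6.0, 5.41 and 5.86 in early arrays. The very-late arrays did not overlap with the early ones, and late replicate 1 sat with the early arrays. Very-late against early was 2.43 ± 0.50, or 5.37-fold, adjusted p = 0.00172 by limma, with both probe sets past the test. Very-late against late, 1.37 ± 0.50, did not pass (adjusted p = 0.0838 by limma), although it did without very-late replicate 3 (1.69, adjusted p = 0.0354). Late against early passed without late replicate 1 (1.57, adjusted p = 0.0469 by limma), and very-late against early no longer passed without very-late replicates 1 and 2 (1.64, adjusted p = 0.0526).

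TNFSF4, a costimulatory ligand for T cells that binds TNFRSF4, was highest at the mid-late and late stages. Its stage means were 4.62, 5.49, 6.11, 6.09 and 4.77 from early to very-late. It had 5.04, 4.50, 4.34 and 5.20 in very-late arrays, against 5.24, 6.44, 6.38 and 6.31 in late arrays. The 2 stages did not overlap, but late replicate 1 lay close to the very-late values. The fall of 1.32 ± 0.29 on the log2 scale was 2.5-fold (adjusted p = 0.00354 by limma), and the rise in late against early was 1.47 ± 0.29 (adjusted p = 0.00363). Mid-late against early, 1.49 ± 0.29, passed for TNFSF4 (adjusted p = 0.00741 by limma) but not with the 13 arrays high in mitochondrial signal (1.42, adjusted p = 0.0531). Its receptor TNFRSF4 lay near the background gauge, with stage means between 4.23 and 4.40, and passed in no comparison.

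TNFSF11, known as RANKL for its part in bone resorption, was detected in the late stage only in some arrays. It had 3.52, 3.59, 3.60 and 3.45 in very-late arrays, against 3.55, 4.18, 4.37 and 4.84 in late arrays. In the early arrays it had 3.40, 3.57, 3.51 and 3.51. Thus 2 late values lay above the viral 95th percentile, while late replicate 1 was in the range of the other stages. The log2 difference passed in very-late against late (-0.69 ± 0.16, adjusted p = 0.00665 by limma) and in late against early (0.73 ± 0.16, adjusted p = 0.00896 by limma), with both probe sets past the test, and late against mid-late passed without late replicate 1 (0.91, adjusted p = 0.00123). With only the 8 arrays of each comparison, TNFSF11 did not pass in very-late against late (adjusted p = 0.116) or in late against early (adjusted p = 0.0843), and late against early also missed the threshold with the 13 arrays high in mitochondrial signal (adjusted p = 0.0556). As every stage mean was under the viral 95th percentile, no fold is given.

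TNFSF14, a ligand of TNFRSF14, and TNFSF15, a ligand of TNFRSF25, each had very-late replicate 2 above the other arrays. TNFSF15 had 3.64, 5.61, 3.50 and 3.63 in very-late arrays, against 3.08 to 3.22 in late arrays. Very-late replicate 2 was far above the rest. The change was 0.94 ± 0.30 (adjusted p = 0.0441 by limma), and 16 of 20 fits that left out 1 array missed the threshold, with adjusted p up to 0.0944. Without very-late replicate 2 the TNFSF15 change was 0.43 and passed (adjusted p = 0.000113), and with only the 8 arrays of the comparison it was 0.94 and did not (adjusted p = 0.263). For TNFSF14 the very-late values were 5.03, 6.0, 5.21 and 4.90, against 4.97, 4.61, 4.71 and 4.74 in late arrays, which overlapped. Its change of 0.53 ± 0.17 (adjusted p = 0.048 by limma) was also lost in 16 of 20 such fits, and was 0.29 without very-late replicate 2 (adjusted p = 0.115).

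TNF itself, the founding cytokine of the family, and FASLG, the ligand of the FAS death receptor, lay at background. TNF stage means ran between 3.33 and 3.53 and FASLG means between 3.29 and 3.42, none above the viral 95th percentile. Neither passed in any comparison. TNFSF8, TNFSF9 and TNFSF18 completed the ligands, and of these TNFSF8 passed in very-late against early only (0.49 ± 0.15, adjusted p = 0.0245 by limma), a call lost without early replicate 1 or early replicate 3 (adjusted p = 0.0572 and 0.0635). Without very-late replicate 2 the TNFSF8 change was 0.27.

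**Figure D2:**
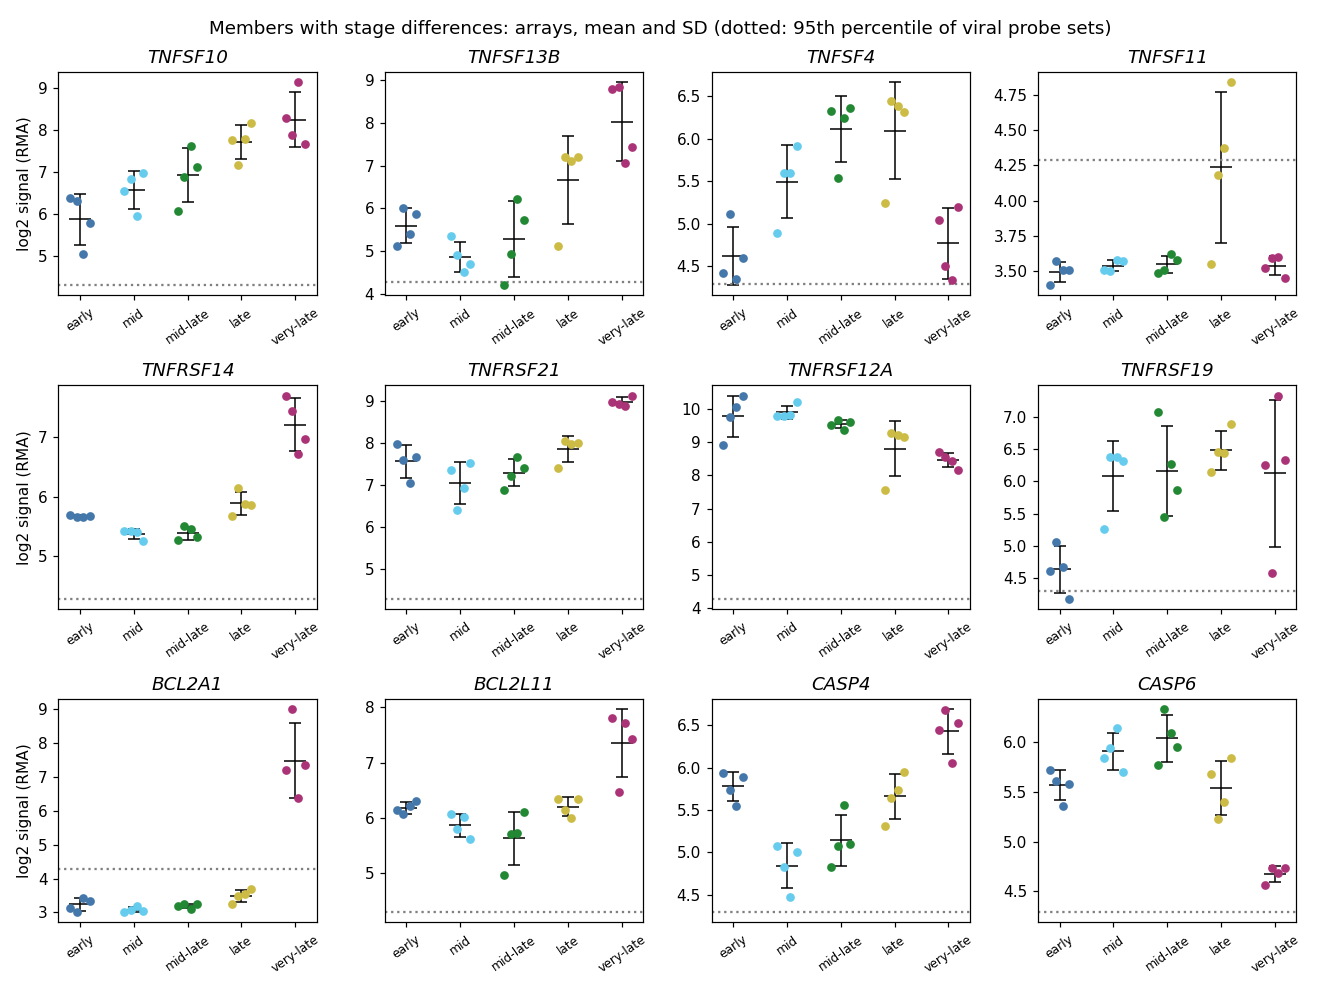
Log2 signal of 12 members in each array (points, coloured by stage), with the stage mean and SD of 4 arrays (black bars), on 1 panel per gene with its own scale. The dotted line is the 95th percentile of viral probe sets, 4.29. BCL2A1 lies under the line in the first 4 stages and between 6.37 and 9.0 at very-late, and late replicate 1 is the lowest late point for TNFSF13B, TNFSF4, TNFSF11, TNFRSF12A and TNFRSF21.

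Of the 15 receptors, 2 rose and 0 fell in very-late against late. TNFRSF14, which binds TNFSF14 and regulates T cells and epithelia, had 7.69, 7.43, 6.72 and 6.97 in very-late arrays, against 5.68, 6.14, 5.87 and 5.86 in late arrays. The groups were well apart, and the early values, 5.66 to 5.70, were tightly grouped. The rise was 1.32 ± 0.15, or 2.49-fold, adjusted p = 6.71e-06 by limma, and passed in all 20 fits without 1 array.

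TNFRSF21, a receptor with a death domain, had 8.97, 8.93, 8.86 and 9.12 in very-late arrays, against 7.39, 8.03, 7.97 and 7.99 in late arrays. The very-late arrays were closely grouped and above every other array. The rise was 1.13 ± 0.23, or 2.19-fold, adjusted p = 0.0022 by limma, and was kept in all 20 fits. TNFRSF25, the death domain receptor of TNFSF15, was higher in very-late than in early tissue, at 5.92 ± 0.21 and 5.15 ± 0.20 (SD, n = 4 each), a change of 0.77 ± 0.13 (adjusted p = 0.000298 by limma).

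TNFRSF12A, the receptor of the ligand TWEAK, went the other way. It had 8.69, 8.54, 8.43 and 8.17 in very-late arrays, against 8.91, 9.76, 10.04 and 10.37 in early arrays. The change of -1.32 ± 0.32 passed (adjusted p = 0.00579 by limma). Late replicate 1, at 7.56 against 9.16 to 9.28 in the other late arrays, was lower than any very-late array, and without it very-late against late also passed (-0.76, adjusted p = 0.0361). With only the 13 arrays high in mitochondrial signal, TNFRSF12A did not pass in very-late against early (-1.14, adjusted p = 0.0817).

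TNFRSF19, a receptor of the family linked to progenitor cells, rose in late against early tissue. It had 6.14, 6.46, 6.45 and 6.89 in late arrays, against 4.61, 5.06, 4.67 and 4.17 in early arrays. The groups did not overlap, and the change was 1.86 ± 0.45, or 3.63-fold (adjusted p = 0.0145 by limma). At very-late its arrays were scattered, at 6.25, 4.57, 7.34 and 6.34, with replicate 2 in the early range. Very-late against early still passed (1.5 ± 0.45, adjusted p = 0.0234 by limma), but not without early replicate 4 or very-late replicates 1, 3 or 4 (adjusted p between 0.0519 and 0.0902). With only the 8 arrays of that comparison TNFRSF19 did not pass (adjusted p = 0.11), and without very-late replicates 1 and 2 its change was 2.21. Only 1 of its 3 probe sets passed in either comparison. In late against early the other 2 changed by 0.17 to 0.54, and the mean of all 3 by 0.86 (adjusted p = 0.0195).

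Other receptors of killing and survival signals did not pass. FAS had stage means between 4.08 and 4.50, and very-late against late was -0.42 ± 0.28 (adjusted p = 0.414 by limma). TNFRSF10B, a receptor of TNFSF10, stayed under the viral 95th percentile, with means between 3.74 and 3.85. TNFRSF10A, another receptor of TNFSF10, had stage means between 4.45 and 4.80, above that percentile in all 5 stages, and passed in no comparison. TNFRSF1B, the TNF receptor without a death domain, had means between 6.20 and 6.70 and passed nowhere. TNFRSF11B, the decoy receptor that binds TNFSF11, had 3.25 to 3.57 in very-late arrays, against 5.12, 3.61, 3.28 and 5.97 in early arrays, so that only some early arrays were above background. Its change in very-late against early, -1.10 ± 0.42, missed the threshold (adjusted p = 0.0826 by limma) and passed without early replicate 2 (-1.40, adjusted p = 0.0338) or early replicate 3 (-1.51, adjusted p = 0.0122).

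**Figure D3:**
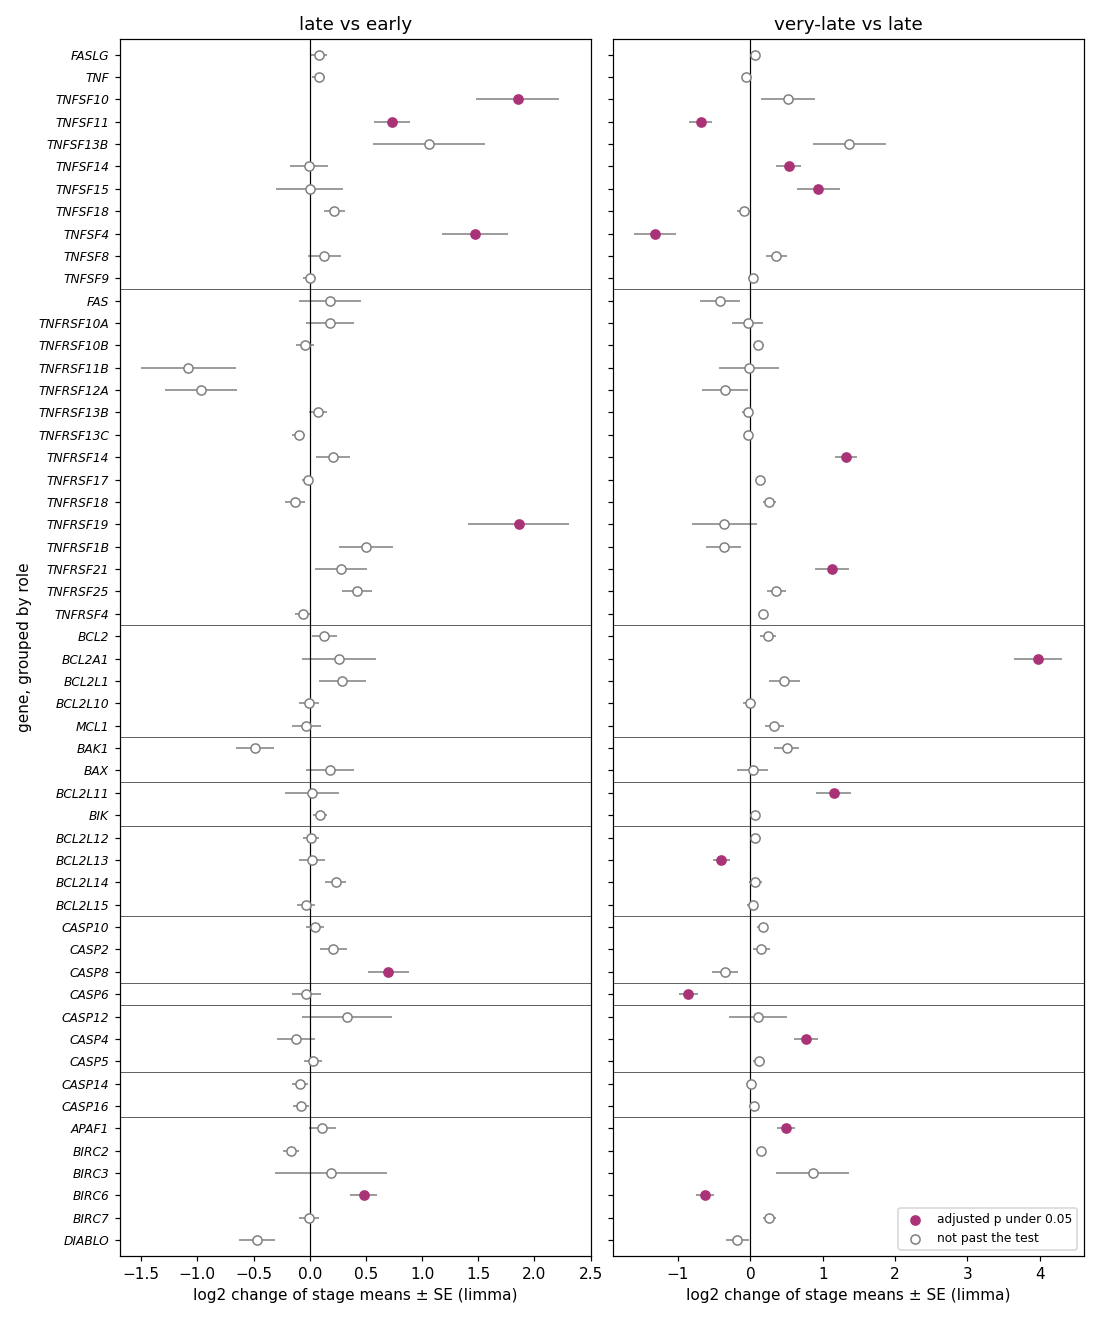
Log2 change of the stage means with its SE from the limma fit, for all 54 members grouped by role, in late against early (left) and very-late against late (right). Filled points passed the adjusted p threshold of 0.05. In very-late against late BCL2A1, at 3.98, lies far to the right of the other members, and in late against early all 6 filled points are above 0.

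BCL2A1, a pro-survival BCL2 protein known for its expression in blood cells, changed more than any other member. It had 7.20, 9.0, 6.37 and 7.34 in very-late arrays, against 3.26, 3.50, 3.53 and 3.69 in late arrays. The very-late values were all above, and every late, mid-late, mid and early value was below, the viral 95th percentile. The fitted change was 3.98 ± 0.33, adjusted p = 2.1e-07 by limma. Taking 4.29 as the level of the late arrays, it was at least 9.1-fold higher in very-late tissue. It passed in all 20 fits without 1 array, with changes between 3.48 and 4.35, and without both very-late replicates 1 and 2 the change was 3.36.

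The other pro-survival members changed less than BCL2A1 at the very-late stage. BCL2, BCL2L1, BCL2L10 and MCL1 did not pass in very-late against late. BCL2L1, which encodes BCL-XL, had 5.18, 6.25, 5.60 and 5.54 in very-late arrays, against 4.98, 5.23, 5.26 and 5.23 in late arrays. The groups overlapped and the change, 0.47 ± 0.21, did not pass (adjusted p = 0.163 by limma). Against early it did (0.76 ± 0.21, adjusted p = 0.0137 by limma), but not without early replicate 1 or early replicate 2 (adjusted p = 0.054 and 0.0513). In that comparison 3 of the 4 probe sets of BCL2L1 passed, and the 3 not used here changed by -0.11 to 0.72. BCL2 passed only against early, by 0.37 ± 0.11 (adjusted p = 0.0275), and not without early replicate 4, very-late replicate 2 or very-late replicate 3 (adjusted p between 0.0811 and 0.11). MCL1 had stage means between 6.86 and 7.24, and very-late against late, 0.33 ± 0.13, passed only without very-late replicate 4 (0.47, adjusted p = 0.0131 by limma).

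BAX and BAK1, which open the mitochondrial membrane, did not pass in any comparison. BAX had 7.14, 8.59, 8.12 and 8.05 in very-late arrays, against 7.62, 7.85, 8.25 and 8.08 in late arrays. Very-late replicate 1, the array with the highest GAPDH ratio, was the lowest of the 20 for BAX. Without it BAX passed in very-late against early (0.48, adjusted p = 0.0338 by limma), and BAK1 passed in very-late against late (0.69, adjusted p = 0.00457 by limma), against 0.50 ± 0.17 with all arrays (adjusted p = 0.0678). The part of RNA quality in these values was not tested.

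BCL2L11, the BH3-only protein BIM, had 7.80, 6.46, 7.72 and 7.43 in very-late arrays, against 6.34, 6.14, 5.99 and 6.34 in late arrays. All very-late values lay above all late ones, with replicate 2 the nearest to them. The rise was 1.15 ± 0.24, or 2.22-fold, adjusted p = 0.00301 by limma, and was kept in all 20 fits without 1 array. The gene had 6 probe sets, of which 2 passed, the one used here and 1 of the other 5. Those 5 ranged between -0.04 and 0.57, and the mean of all 6 changed by 0.36 (adjusted p = 0.000131 by limma). BIK, the other BH3-only member measured, had means of 3.46 to 3.62, all under the viral 95th percentile.

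Of the BCL2-named members with less settled roles, BCL2L13 fell in very-late against late by 0.40 ± 0.12 on the log2 scale (adjusted p = 0.029 by limma). This rested on 1 of 3 probe sets, as the other 2 changed by 0.04 to 0.12 without passing. It was lost without late replicates 3 or 4 or very-late replicates 1 or 3 (adjusted p between 0.0681 and 0.0983). BCL2L14 passed against early only (0.30 ± 0.09, adjusted p = 0.0324 by limma), with every stage mean under the viral 95th percentile, and was lost in 5 of 20 fits without 1 array (early replicates 1, 2 and 4, very-late replicates 1 and 3).

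Among the caspases, 1 rose and 1 fell in very-late against late. CASP6, an executioner caspase, had 4.56, 4.73, 4.68 and 4.73 in very-late arrays, against 5.68, 5.23, 5.40 and 5.84 in late arrays. The very-late values were closely grouped below every other array. The fall was 0.86 ± 0.13 on the log2 scale, or 1.82-fold, adjusted p = 0.000173 by limma, and its highest stage mean, 6.04, was at mid-late.

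CASP4, an inflammatory caspase that senses bacterial lipid, fell early in luteal life and rose at its end. Its stage means were 5.78, 4.84, 5.14, 5.66 and 6.43. The very-late values, 6.45, 6.68, 6.06 and 6.53, lay above the late ones, 5.31, 5.64, 5.74 and 5.95. That rise was 0.77 ± 0.17 (adjusted p = 0.00461 by limma), with both probe sets past the test, but without very-late replicates 1 and 2 it was 0.64 and did not pass (adjusted p = 0.0767). Mid against early, -0.94 ± 0.17, passed (adjusted p = 0.0281 by limma), and was lost on leaving out any of early replicates 1 and 4 and of mid replicates 3 and 4 (adjusted p between 0.0521 and 0.104). All 4 mid arrays belong to the group with low mitochondrial signal, and with a term for that split the change was -0.95 and did not pass (adjusted p = 0.0852 by limma). Mid-late against early, -0.64 ± 0.17 (adjusted p = 0.0456 by limma), was lost in 13 of 20 fits without 1 array, with adjusted p between 0.051 and 0.145.

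CASP8, the initiator caspase of death receptors, rose in late against early tissue. It had 5.20, 5.44, 5.31 and 5.57 in late arrays, against 4.47, 4.52, 5.05 and 4.68 in early arrays, which did not overlap. The change was 0.70 ± 0.18 (adjusted p = 0.0231 by limma), with both probe sets past the test, and was lost on leaving out any of early replicates 1, 2 and 4 and of late replicates 2 and 4 (adjusted p between 0.0525 and 0.073). At very-late its arrays ranged from 4.48 to 5.65. Without very-late replicate 2 it fell in very-late against late (-0.56, adjusted p = 0.0208 by limma), where all arrays gave -0.35 ± 0.18. Without very-late replicate 1, at 4.48, CASP8 was higher in very-late than in early tissue (0.53, adjusted p = 0.0304 by limma). That array had the highest GAPDH ratio. CASP10 passed against early only (0.23 ± 0.08, adjusted p = 0.0491 by limma), under the viral 95th percentile at every stage, and was lost in 16 of 20 fits. CASP2, CASP5, CASP12, CASP14 and CASP16 did not pass.

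APAF1, the core of the caspase-activating platform, had 4.62, 5.31, 4.76 and 4.71 in very-late arrays, against 4.38, 4.38, 4.30 and 4.39 in late arrays. The groups did not overlap, and the rise was 0.49 ± 0.12, or 1.40-fold (adjusted p = 0.00851 by limma), with 2 of 3 probe sets past the test, but with only the 8 arrays of the comparison APAF1 did not pass (adjusted p = 0.0727). BIRC6, a large inhibitor of apoptosis that also joins ubiquitin to proteins, had 6.91, 7.19, 7.30 and 7.43 in very-late arrays, against 7.96, 7.65, 7.81 and 7.91 in late arrays. It fell by 0.63 ± 0.12 on the log2 scale (adjusted p = 0.00158 by limma), with 1 of 3 probe sets past the test. Its rise in late against early, 0.48 ± 0.12 (adjusted p = 0.021), was lost on leaving out any of early replicates 2 and 3 and of late replicates 1 and 4 (adjusted p up to 0.0742).

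DIABLO, which blocks inhibitors of apoptosis after leaving mitochondria, was lower in very-late than in early tissue. It had 6.77, 7.95, 7.49 and 7.45 in very-late arrays, against 7.92, 7.87, 8.21 and 8.23 in early arrays, with overlap through very-late replicate 2. The change was -0.65 ± 0.16 (adjusted p = 0.00864 by limma), and without very-late replicate 1, the array with the highest GAPDH ratio, it was -0.43 and still passed. With only the 8 arrays of the comparison DIABLO did not pass (-0.65, adjusted p = 0.118). BIRC2 and BIRC3, which act in TNF receptor signalling, did not pass. BIRC3 scattered between 3.70 and 6.88 in very-late arrays, against 3.22 to 4.76 in late arrays, and passed in very-late against early without very-late replicate 3 (1.47, adjusted p = 0.044 by limma).

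Genes around these pathways were described from 6 lists. In very-late against late 21.4% of all genes passed, and no list was tested as a set, so the counts are descriptive only. Of the adaptors and death domain kinases, 6 of 9 were measured, and in very-late against late 3 rose and 1 fell. RIPK3, the kinase of necroptosis, rose by 0.98 ± 0.17 (adjusted p = 0.000509), RIPK2 by 0.89 ± 0.21 (adjusted p = 0.0059), and CRADD fell by 0.86 ± 0.19 on the log2 scale (adjusted p = 0.00388, all by limma). In late against early 1 rose, MLKL, the pore former of necroptosis, by 0.87 ± 0.22. Of the TRAF and NF-kB genes, 14 of 18 were measured, and 5 rose and 0 fell in very-late against late. NFKBIE changed by 1.22 ± 0.21, RELB by 0.83 ± 0.13 and NFKB1 by 0.60 ± 0.17. The median changes of these lists were 0.51 and 0.27, against 0.008 over all genes. For the mitochondrial, inflammasome and TNF processing lists that follow they were 0.08, 0.2 and 0.01.

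Of the other mitochondrial pathway genes, 10 of 17 were measured, with 2 higher and 2 lower in very-late against late. BAG4, which binds the tails of death receptors and HSP70, fell by 1.68 ± 0.19 on the log2 scale after a rise of 1.00 ± 0.19 in late against early. HTRA2, a mitochondrial protease, rose by 0.55 ± 0.11. PMAIP1, the BH3-only protein NOXA, rose at least 1.4-fold (adjusted p = 0.0164 by limma), with means of 4.77 in very-late and 3.66 in late tissue, the second under the viral 95th percentile. In late against early this list had 1 higher and 3 lower, among them PPIF, the cyclophilin of the permeability pore (-1.74 ± 0.32), and ENDOG, a mitochondrial nuclease (-0.61 ± 0.15).

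Of the caspase substrates and clearance genes, 9 of 11 were measured, and 2 rose and 0 fell in very-late against late. These were MERTK, a receptor that clears dying cells (0.90 ± 0.21), and GSN, an actin-severing caspase substrate (0.67 ± 0.18). The median change of this list was -0.17, so the sign of its median and of its called members differed. In late against early GAS6, the ligand of MERTK, rose by 1.07 ± 0.27 and ROCK1, a kinase cut by caspases, by 0.47 ± 0.13.

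Of the inflammasome genes, 8 of 9 were measured, with 4 higher and 1 lower in very-late against late. PYCARD, the adaptor that recruits inflammatory caspases, rose by 3.09 ± 0.27 (adjusted p = 3.08e-07 by limma), to 8.86 ± 0.71 in very-late tissue, against 5.77 ± 0.34 in late tissue (SD, n = 4 each). IL1B rose at least 1.43-fold (means of 4.80 in very-late and 4.08 in late tissue, the second under the viral 95th percentile), and AIM2, a sensor of DNA, fell by 1.61 ± 0.37 on the log2 scale. Of the TNF processing and response genes, 6 of 7 were measured, with 2 higher and 2 lower. LITAF rose by 1.64 ± 0.14 and TNFAIP8 at least 1.41-fold (means of 4.78 in very-late and 4.05 in late tissue, the second under the viral 95th percentile), while TNFAIP6 fell by 2.80 ± 0.42 on the log2 scale.

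Markers of other cells moved at the same step. Of 10 measured macrophage and monocyte markers, 6 rose and 0 fell in very-late against late, among them CD68 (2.70 ± 0.27), CYBB (3.54 ± 0.33) and TYROBP (2.76 ± 0.31). The mean of the 10 was 8.90, 9.51, 8.66 and 8.83 in very-late arrays, against 6.95, 7.42, 7.40 and 7.61 in late arrays. BCL2A1 and the macrophage mean were both highest in very-late replicate 2 and lowest in very-late replicate 3. The same held for the means of the neutrophil, NK cell, adaptor, and TRAF and NF-kB lists, so this order was not particular to macrophage markers. Late replicate 1, low for TNFSF13B, TNFSF4, TNFSF11, TNFRSF12A and TNFRSF21, also had the lowest macrophage mean (6.95) and the lowest steroidogenic mean (11.03) of the late arrays. This array was also lowest of the late arrays for the T cell and dividing cell means. It was highest for the neutrophil, NK cell, endothelial, fibroblast and pericyte, and erythrocyte means. The part of cell makeup in the changes of the members was not tested.

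Other marker lists gave a mixed picture. The neutrophil mean was 4.79 in very-late replicate 2, against 4.03 to 4.13 in the other very-late arrays and 3.92 to 4.21 in late arrays, and 0 of its 5 genes passed. T cell markers were measured by 2 genes, with means of 5.51 to 5.86 in very-late arrays and 4.97 to 5.05 in late arrays, and CD8A rose by 0.60 (adjusted p = 0.0131 by limma). The NK cell mean was 7.15 to 8.00 in very-late arrays, against 7.32 to 7.88 in late arrays, with GZMB lower and NCAM1 and NKG7 higher. The means of 4 B and plasma cell genes were 3.96 to 4.32 in very-late arrays and 3.67 to 3.85 in late arrays, and JCHAIN rose at least 1.35-fold (adjusted p = 0.000972 by limma). Endothelial means were 8.01 to 9.19 in very-late arrays and 8.81 to 9.06 in late arrays, and 2 of 8 genes fell. Fibroblast and pericyte means were 8.39 to 9.03 in very-late arrays and 9.29 to 9.60 in late arrays, and 2 of 5 fell. Erythrocyte means, over 2 genes, were 5.57 to 6.26 in very-late arrays and 5.83 to 6.04 in late arrays. Of 6 markers of dividing cells, 6 fell in late against early tissue.

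**Figure D4:**
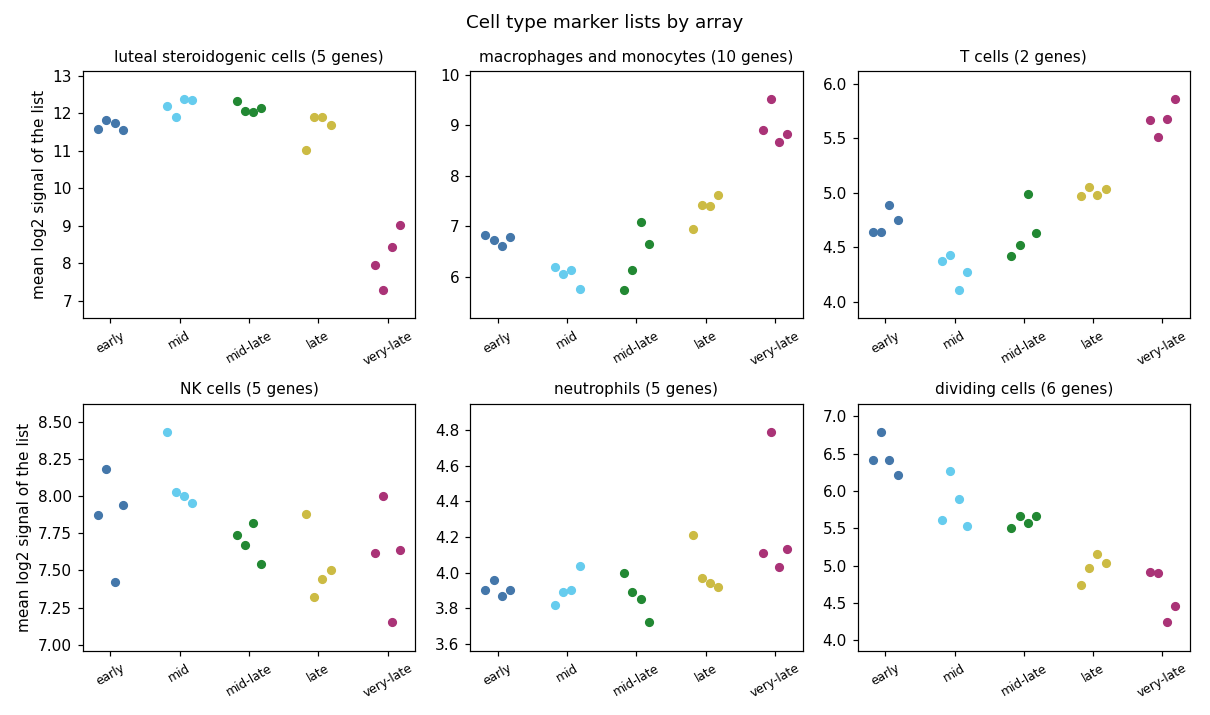
Mean log2 signal of 6 marker lists in each array (points), by stage from early to very-late, 1 panel per list with its own scale and the number of genes in its title. The macrophage and monocyte list is at 8.66 to 9.51 in the very-late arrays, above every other array, and the steroidogenic list is at 7.30 to 9.02, below every other array.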

How the data were processed

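Total RNA of 20 corpora lutea was hybridised to 1-colour Affymetrix rhesus arrays. The deposited values are log2 signals that the authors made with RMA, per the submitters' processing notes; its version and probe definition are not given in the sources used here. They ranged from 2.48 to 14.28 and were used as deposited. From the 52865 deposited probe sets 158 controls of the array were removed. The platform annotation gave 1 symbol to 24956 of the tested probe sets, several to 361 and none to 27390. A model of 5 stage means over all 20 arrays was fitted with limma 3.58.1 (R 4.3.3; 15 residual and 2.75 prior degrees of freedom), and checked on simulated data. It gave 7 pairwise contrasts and an F test, two-sided, with Benjamini-Hochberg adjustment over 52707 probe sets. No 2 arrays held identical values. The number of arrays limits the precision.

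The members and all lists were chosen with earlier results of these data known. The text names the up to 8 largest rises and falls past the test in each comparison, 27 fixed genes (20 measured), and up to 3 genes from each of 6 lists in 2 comparisons. Members with a call outside this rule (TNFSF8, TNFRSF25, BCL2L14, CASP10), members mentioned for their role and single marker genes were added after their values were seen. Alternatives were cyclic loess, median centring, a filter on dim probe sets (at least 4 arrays above log2 5), a trended robust prior, array weights, averaging all probe sets of a gene, a replicate block, a term for the mitochondrial split, leaving out arrays and fitting only the arrays of a comparison.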

Additional observations from a re-analysis of the deposited data

Results flagged for a closer look

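Within-stage outliers were looked for among the 32 named members, in 160 groups of 4 arrays, by the gap of the highest or lowest array to its neighbour as a share of the range (Dixon's test). Chance flags about 1 in 20 groups, and 14 were found. Of these, 5 were late replicate 1, which was low for BCL2L1 (4.98), TNFRSF12A (7.56), TNFRSF21 (7.39), TNFSF13B (5.13) and TNFSF4 (5.24). Late replicate 4 was high for TNF (3.67). Very-late replicate 2 was high for TNFSF15 (5.61). Mid-late replicate 2 was low for TNFSF4 (5.54). In the mid stage, BIRC2 was high in replicate 2 (10.42), BIRC3 low in replicate 3 (3.11), TNFRSF12A high in replicate 4 (10.19), TNFRSF14 low in replicate 4 (5.26) and TNFRSF19 low in replicate 1 (5.26). Early replicate 1 was low for BCL2L13 (7.36). The causes were not tested.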

How the results depend on the processing

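Of 43 calls of a member in a pairwise comparison, 27 passed in all 20 fits without 1 array and 16 were lost in at least 1; 0 changed sign. Counts of members called, leaving out 1 array at a time, were 15 to 22 for any stage difference, 0 to 2 in mid against early, 1 to 4 in mid-late against early, 4 to 8 in late against early, 14 to 22 in very-late against early, 0 to 0 in mid-late against mid, 0 to 1 in late against mid-late and 10 to 16 in very-late against late. In mid against early the count was 0 without early replicate 1 or mid replicates 3 or 4 and 2 without mid-late replicate 1 or very-late replicates 1 or 2. In mid-late against early it was 4 without very-late replicate 2 and 1 without any one early array, mid replicates 2 or 4, mid-late replicates 2 or 4, late replicate 3 or very-late replicates 1 or 4. In late against mid-late it was 1 (TNFSF11) without late replicate 1. Mid against early, with 1 call, gave 2 with dim probe sets left out, with array weights and with probe sets averaged per gene, and 0 with the replicate block, with the mitochondrial term and with only the 8 arrays of the comparison. Mid-late against early, with 2 calls, gave 4 with dim probe sets left out, 5 with array weights, 6 with only the 8 arrays, 1 with median centring, 1 with the replicate block and 0 with only the 13 arrays high in mitochondrial signal. Very-late against early, with 21 calls, gave 13 with those 13 arrays and 11 with 8 arrays. Very-late against late, with 13 calls, gave 8 with 8 arrays, and late against mid-late gave 1 with array weights. Without very-late replicates 1 and 2 the counts were 3 in mid against early, 6 in mid-late against early and 1 in late against mid-late. Calls lost were 7 of 43 under cyclic loess, 6 under median centring, 3 with probe sets averaged, 4 each under the robust prior, array weights, replicate block and mitochondrial term, 9 without very-late replicates 1 and 2, 17 with 8 arrays and 13 of 42 with the 13 arrays, a setting chosen after seeing the data; the dim filter kept 32 of 32 it retained. The labels do not say whether replicate numbers pair the arrays. Over 40 same-numbered pairs the correlation of deviations from stage means was -0.2082 to 0.2143, with 6 above 0.1. Without the same range for differently numbered pairs this cannot settle whether arrays were paired. Fits on 8 or 13 arrays were not run for the any-stage test, nor on 13 arrays for comparisons with mid. The causes of these changes were not tested. Signal near the viral 95th percentile limits TNFSF11, TNFSF15, TNFSF8, BCL2L14, CASP10, APAF1, RIPK3, PMAIP1, IL1B, TNFAIP8 and JCHAIN.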
